A study of Mus musculus with 12 samples.

Results

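Expression of 9 genes that mark B cells and lymphoid follicles was measured by RNA sequencing in mouse colorectal tissue. The genes were Cd79a, Cd79b, Blk, Bank1, Ms4a1, Cd22, Cr2, Fcer2a and Pax5. They were chosen by symbol as a list of B cell identity genes, and all 9 were found among the 18514 genes of the count table. All 9 also passed the filter on low counts, which kept 15484 genes for testing. The tissue came from 12 male C57BL/6 mice bought at 4 weeks of age, with 1 library per mouse, and the groups Ctrl, Model, Ctrl_Swim and Model_Swim held 3 mice each. Model mice were injected 1 time with 10 mg/kg of the carcinogen azoxymethane (AOM) and were afterwards given dextran sulfate sodium (DSS), which injures and inflames the colon, at 2% in 3 cycles of drinking water. Together these agents produce colitis-associated tumours. Model_Swim mice received the same agents and swam daily before and during this period, up to 90 min per day. Ctrl_Swim mice swam without AOM/DSS, and Ctrl mice received neither. Mice that did not swim were placed in shallow water instead. The colon was taken from the distal cecum to the rectum, and the stretch used for RNA and whether it held tumour or lymphoid tissue are not given in the sources used here. All libraries are of whole tissue, so more B cells and more RNA per B cell cannot be told apart.

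B cells recognise antigen through a surface immunoglobulin that cannot signal alone and is paired with a dimer of the Cd79a and Cd79b proteins. In the colon most naive and memory B cells sit in lymphoid follicles of the wall, such as colonic patches and isolated lymphoid follicles, whereas plasma cells, which secrete IgA and have lost most B cell surface proteins, lie scattered through the lamina propria. Follicles are built around follicular dendritic cells, which share the receptors Cr2 and Fcer2a with B cells and draw B cells in with the chemokine Cxcl13.

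The 9 genes lie on 8 chromosomes of GRCm38.p6 and all code for proteins. RefSeq promoter windows, 250 bases before to 50 after a start site, were found for 6 of them, in 8 windows. Cd79b, Ms4a1 and Blk had no entry. Windows of Cd79a (chr7:24897247-24897546, plus strand), Cd22 (chr7:30878979-30879278, minus strand) and Bank1 (chr3:136326017-136326316, minus strand) are shown because the RNA of these genes moved together across the 12 libraries, and because they hold the matches other than E-boxes. The capitals mark matches, on either strand, to an E-box (CANNTG), an ETS-type motif (GAGGAA) or an EBF-type motif (CCCNNGGG). No match overlaps another. The sequences are from RefSeq and read 5′ to 3′ along the strand of the gene.
Cd79a: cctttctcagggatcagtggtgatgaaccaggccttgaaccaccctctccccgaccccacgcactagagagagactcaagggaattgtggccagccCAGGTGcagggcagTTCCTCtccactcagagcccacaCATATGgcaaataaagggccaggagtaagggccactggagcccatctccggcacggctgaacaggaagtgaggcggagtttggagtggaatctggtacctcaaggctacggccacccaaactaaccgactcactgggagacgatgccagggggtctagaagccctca
Cd22: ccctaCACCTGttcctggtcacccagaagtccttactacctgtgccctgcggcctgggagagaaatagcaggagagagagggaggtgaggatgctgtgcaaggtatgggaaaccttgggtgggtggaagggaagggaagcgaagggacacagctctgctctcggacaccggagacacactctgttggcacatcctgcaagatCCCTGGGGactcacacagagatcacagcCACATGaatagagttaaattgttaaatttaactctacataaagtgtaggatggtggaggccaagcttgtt
Bank1: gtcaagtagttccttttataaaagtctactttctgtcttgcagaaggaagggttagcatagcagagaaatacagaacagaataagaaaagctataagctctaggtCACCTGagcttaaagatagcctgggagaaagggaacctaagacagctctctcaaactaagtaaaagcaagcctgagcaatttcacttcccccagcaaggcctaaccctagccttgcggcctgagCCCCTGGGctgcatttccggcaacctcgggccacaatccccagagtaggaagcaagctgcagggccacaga
An E-box stood in 8 of 8 windows, against 72.3% of the 32851 RefSeq windows of this length. The EBF-type motif stood in 2 of 8, those of Cd22 and Bank1, against 13.7% of all windows, and the ETS-type motif in 1 of 8, that of Cd79a, against 28.3%. The octamer ATGCAAAT stood in 0 of 8 and in 1.74% of all windows. These are matches of letters only, and binding was not measured.

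Total counts ranged from 17256953 to 19451055 per library, and 3 counts, as many as a gene at 0 may still have, equalled 0.153 to 0.172 CPM, the count scaled to library size. That limit covers counting error only. No member was near it, since the lowest member count was 31, for Blk in Ctrl 2. CPM values are scaled by edgeR's TMM factors. Differences are log2 fold changes from edgeR's quasi-likelihood fit of the 4 groups, each with its standard error (SE). P-values were adjusted over all 15484 genes, and a gene was called at an adjusted p under 0.05 with a fold change over 2 or under 0.5. With 3 mice against 3, an exact permutation test of a single value cannot fall below a p of 0.1. Several libraries stood apart in other tissues' genes. The summed CPM of 12 genes of pancreatic acinar cells was 42280 in Model 1 and 20476 in Model 3, and 92.8 to 205 in the other 10 libraries. That of 9 squamous epithelium genes was 3.63 to 5.74 in Ctrl and ranged from 2.71 to 1407 in the other groups. Genes of a colonocyte list were present in every library, at 8637 to 23122 CPM summed over 8 genes. The list includes the goblet cell mucin Muc2, with group means from 7578 CPM in Model_Swim to 9620 CPM in Ctrl. Ctrl_Swim 4 stood apart from the other Ctrl_Swim libraries in the members themselves, and the members' results that rest on it are given with and without it.

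The fragments per kilobase of transcript, scaled to depth (FPKM), which allow levels to be compared between genes, placed the members in the order Cd79a, Cd79b, Ms4a1, Cd22, Blk, Bank1, Cr2, Fcer2a and Pax5. Mean FPKM over the 12 libraries fell from 17.1 for Cd79a and 11.5 for Cd79b through 4.78 for Ms4a1 and 3.97 for Cd22 to 0.998 for Pax5. Cd79a lay above Cd79b in 12 of 12 libraries, as did Cd22 above Blk and Bank1 above Cr2, and Ms4a1 lay above Cd22 in 11. The neighbours Blk (2.10) and Bank1 (2.02) were not separated, with Blk the higher in 7 of 12 libraries, and neither were Cr2 (1.33) and Fcer2a (1.25), with Cr2 the higher in 7. Fcer2a lay above Pax5 in 9 of 12.

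**Figure D1:**
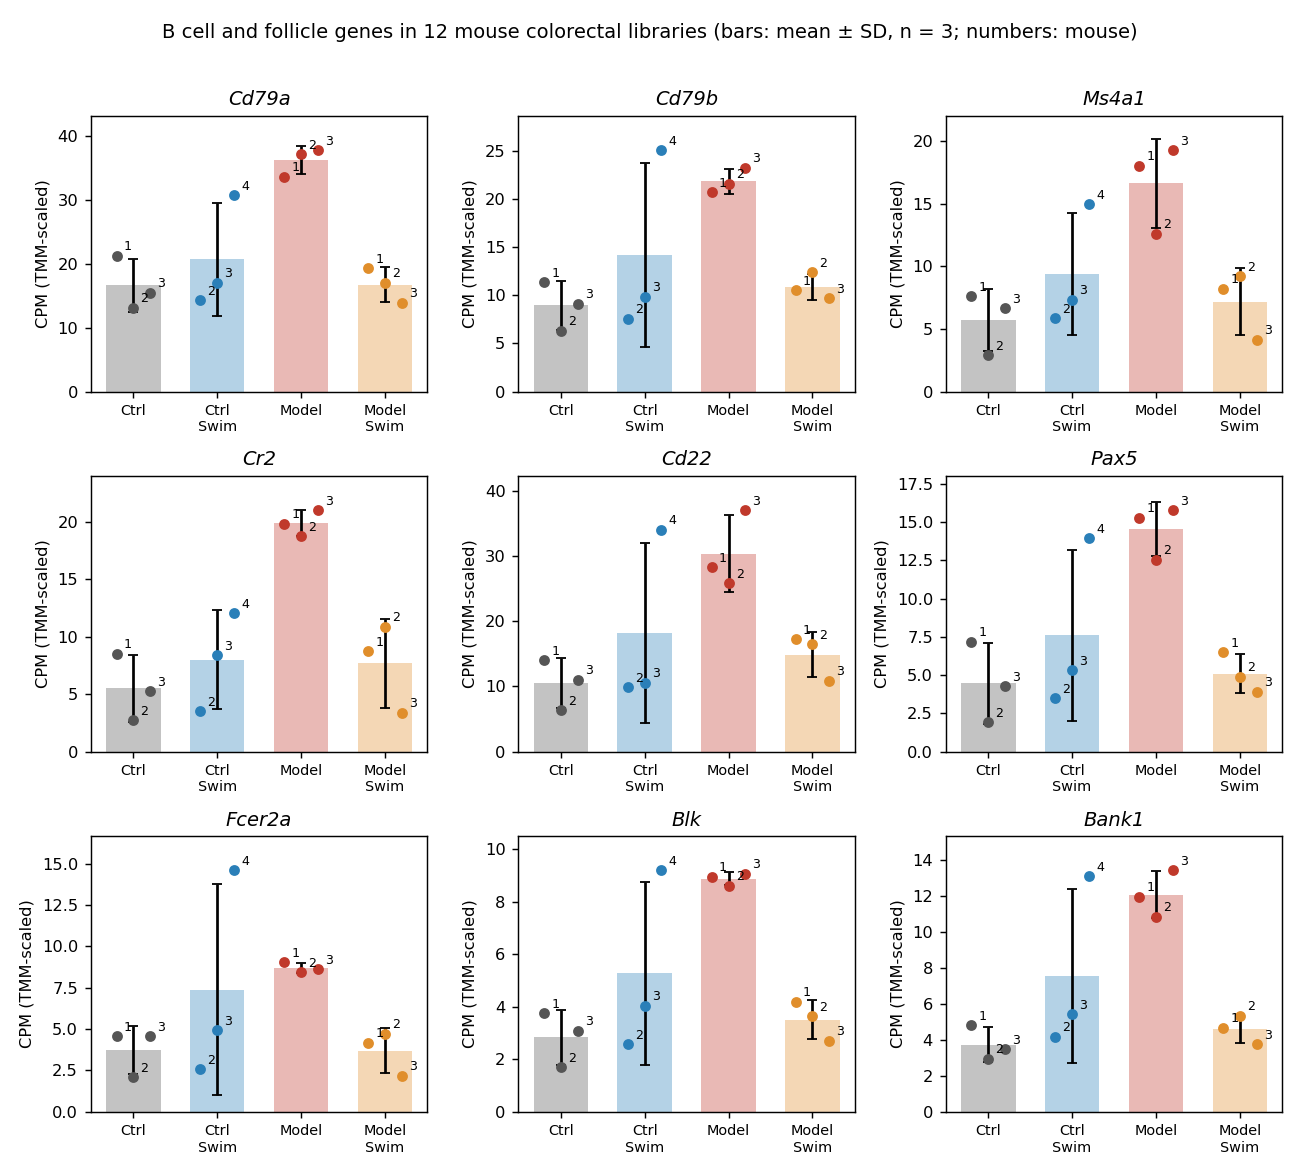
Expression of the 9 B cell and follicle genes in each library, in TMM-scaled CPM on linear axes that start at 0. Bars are group means with the SD over 3 mice, points are mice and carry the mouse number. The 3 Model points and the Ctrl_Swim 4 point are the 4 highest in every panel, and Ctrl 2 is the lowest.

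Among the signalling parts of the B cell receptor, Cd79a (chr7:24897497-24901858) measured 21.3, 13.1 and 15.4 CPM in Ctrl 1 to 3, 14.3, 17.02 and 30.7 in Ctrl_Swim 2 to 4, 33.7, 37.2 and 37.8 in Model 1 to 3, and 19.3, 17.02 and 13.9 in Model_Swim 1 to 3. The Model libraries lay above all others, and Ctrl_Swim 4 came next. Its partner Cd79b (chr11:106311341-106314562) measured 11.4, 6.32 and 9.13 CPM in Ctrl, 7.56, 9.84 and 25.1 in Ctrl_Swim, 20.7, 21.6 and 23.2 in Model, and 10.5, 12.4 and 9.70 in Model_Swim. For this gene Ctrl_Swim 4 exceeded every Model library. Blk (chr14:63372837-63417187), a Src-family kinase of B cells that acts on the receptor's signalling chains, measured 3.75, 1.69 and 3.08 CPM in Ctrl, 2.58, 4.04 and 9.20 in Ctrl_Swim, 8.95, 8.61 and 9.07 in Model, and 4.18, 3.64 and 2.70 in Model_Swim. The Model values of Blk were the tightest of any member, with a coefficient of variation of 2.70%. Bank1 (chr3:136053363-136326141), a B cell scaffold protein of the same pathway, measured 4.80, 2.94 and 3.46 CPM in Ctrl, 4.16, 5.43 and 13.1 in Ctrl_Swim, 11.95, 10.8 and 13.4 in Model, and 4.68, 5.33 and 3.76 in Model_Swim. Here Model and Ctrl_Swim 4 overlapped, and the other libraries lay at or below 5.43 CPM.

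Among the surface proteins, Ms4a1 (chr19:11249679-11266149), which encodes CD20, measured 7.62, 2.89 and 6.65 CPM in Ctrl, 5.86, 7.34 and 15.0 in Ctrl_Swim, 18.01, 12.6 and 19.3 in Model, and 8.20, 9.19 and 4.14 in Model_Swim. Model 2 was the lowest of the Model libraries and fell below Ctrl_Swim 4. Cd22 (chr7:30865404-30880342), an inhibitory receptor that binds sialic acid and damps receptor signalling, measured 14.0, 6.38 and 10.99 CPM in Ctrl, 9.86, 10.6 and 34.0 in Ctrl_Swim, 28.3, 25.8 and 37.0 in Model, and 17.2, 16.4 and 10.9 in Model_Swim. Its Model and Ctrl values did not overlap, and Ctrl_Swim 4 was within the Model range. Cr2 (chr1:195136811-195176880), the complement receptor CD21 that lowers the threshold of the B cell receptor and holds antigen on follicular dendritic cells, measured 8.50, 2.73 and 5.28 CPM in Ctrl, 3.51, 8.41 and 12.1 in Ctrl_Swim, 19.8, 18.7 and 21.0 in Model, and 8.75, 10.9 and 3.39 in Model_Swim. As for Cd79a, Ctrl_Swim 4 stayed below every Model library.

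Fcer2a (chr8:3680280-3694174), the low-affinity IgE receptor CD23 of mature follicular B cells, measured 4.58, 2.07 and 4.56 CPM in Ctrl, 2.58, 4.95 and 14.6 in Ctrl_Swim, 9.06, 8.44 and 8.61 in Model, and 4.18, 4.73 and 2.17 in Model_Swim. Ctrl_Swim 4 was the highest library by a wide margin, at 1.68 times the Model mean. Pax5 (chr4:44524748-44710694), the transcription factor that commits cells to the B lineage and is switched off in plasma cells, measured 7.18, 1.91 and 4.29 CPM in Ctrl, 3.51, 5.32 and 14.0 in Ctrl_Swim, 15.3, 12.5 and 15.8 in Model, and 6.49, 4.89 and 3.92 in Model_Swim. Like the surface proteins it was high in Model and Ctrl_Swim 4 and low elsewhere.

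The first comparison, Model vs Ctrl, asked what AOM/DSS did in sedentary mice. Of the 9 members, 8 rose in Model and 0 fell, while 6.21% of all genes tested were called higher. Fcer2a was the exception. The receptor chains rose least, with Cd79a at a log2 fold change of 1.12 (SE 0.26, adjusted p = 0.00893, edgeR) and Cd79b at 1.29 (SE 0.37, adjusted p = 0.0233), that is 2.18-fold and 2.44-fold. Cr2 rose most, by 1.85 (SE 0.51, adjusted p = 0.0186), or 3.61-fold. Pax5 rose by 1.70 (SE 0.51, adjusted p = 0.0271), Bank1 by 1.69 (SE 0.37, adjusted p = 0.00686) and Blk by 1.64 (SE 0.42, adjusted p = 0.0137). Ms4a1 and Cd22 rose by 1.54 each (SE 0.43 and 0.45, adjusted p = 0.0207 and 0.0245). Fcer2a differed by 1.22 (SE 0.54, 95% interval 0.02 to 2.41, adjusted p = 0.105) and was not called. The 95% intervals of the members overlapped one another, so the order of their changes is a description. The median over the members was 1.54, against 0.0055 over all genes tested, and in 9 of 9 the 3 Model libraries lay above the 3 Ctrl libraries, as they did in 21% of genes tested.

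These calls depended on single libraries. Ctrl 2 was the lowest library for all 9 members, and without it the log2 fold changes were 0.95 to 1.56 and only Bank1 was called. Without Ctrl 3, 4 of 9 were called and without Ctrl_Swim 4, 9 of 9. Model 2 had 173 CPM of acinar genes, where Ctrl libraries had 187 to 205. Summed over the members it had 156 CPM, against 166 in Model 1 and 185 in Model 3. Model 2 also had the most squamous transcript of the 12 libraries, at 1407 CPM, and its part in the members' values was not tested. With Model 1 and Model 3 both left out, the log2 fold changes were 1.12 to 1.75, and Cd79a and Bank1 were called, the lone Model library being assumed to vary like the other groups. With the acinar level as a covariate, the log2 fold changes were 1.24 to 1.77, and 2 were called.

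**Figure D2:**
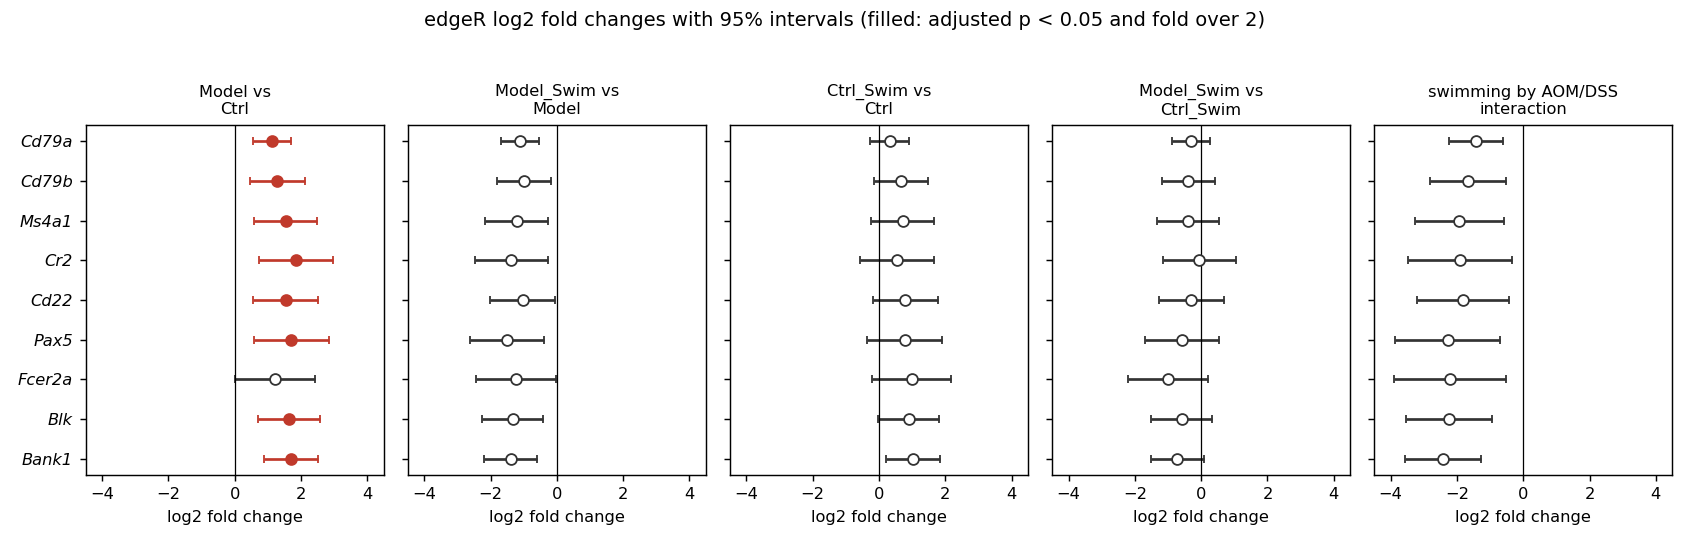
Log2 fold changes of the 9 members in the 5 comparisons, as points from edgeR's quasi-likelihood fit. The 95% intervals were calculated back from its F-test. Filled points passed an adjusted p of 0.05 with a fold over 2. In Model vs Ctrl 8 points are filled, and none is filled in the other 4 comparisons, although all lie below 0 in Model_Swim vs Model and in the interaction.

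The second comparison, Model_Swim vs Model, asked whether swimming moved these genes in AOM/DSS mice. No member was called (0 of 9, against 0.071% of all genes tested). All 9 lay lower in Model_Swim, as did 51.8% of genes, with log2 fold changes from -1.01 for Cd79b to -1.51 for Pax5 and a median of -1.24, where the median of all genes was -0.0085. Their SE lay between 0.26 and 0.54 and the adjusted p-values between 0.141 and 0.355. In 9 of 9 the 3 Model_Swim libraries lay below the 3 Model libraries, as they did in 8.57% of genes tested, and 9 of 9 had an unadjusted p under 0.05 in this direction, against 6.91% of genes. Cd79a gave -1.11 (SE 0.26, 95% interval -1.69 to -0.54, adjusted p = 0.141) and Bank1 -1.39 (SE 0.37, interval -2.20 to -0.59, adjusted p = 0.176). By DESeq2, which called 0.742% of genes, both were called (adjusted p = 0.00295 and 0.0147), as they were by edgeR without Ctrl_Swim 4 (adjusted p = 0.0455 and 0.0405). Over all alternatives tried, their adjusted p ranged from 0.00295 to 0.436 and from 0.0147 to 0.489. The receptors Cr2 and Fcer2a gave -1.37 (SE 0.50, adjusted p = 0.277) and -1.24 (SE 0.54, adjusted p = 0.355). Acinar genes lay lower in Model_Swim too, in 10 of 10 tested, with a median of -13.38 and 0 called by edgeR, and DESeq2 called 12 of 12 lower. With Model 1 and Model 3 left out the members' log2 fold changes were -0.78 to -1.28, and with the acinar covariate -0.82 to -1.43, with 0 called in either.

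Side by side, Model_Swim and Ctrl libraries overlapped for all 9 members, whereas 46.6% of genes tested showed no overlap between these groups. Mean levels in Model_Swim and Ctrl were 16.7 ± 2.73 and 16.6 ± 4.18 CPM (SD, n = 3) for Cd79a. They were 5.10 ± 1.30 and 4.46 ± 2.64 for Pax5, and 3.70 ± 1.35 and 3.74 ± 1.44 for Fcer2a. These members had the closest means, and all others had higher means in Model_Swim. The means were 10.9 and 8.94 CPM for Cd79b, 7.18 and 5.72 for Ms4a1, and 7.67 and 5.50 for Cr2. For Cd22 they were 14.8 and 10.5, for Blk 3.51 and 2.84, and for Bank1 4.59 and 3.74. Model_Swim 3 was the lowest of its group for every member but had more squamous transcript than Model_Swim 1, at 1051 against 107 CPM. The part of squamous tissue in these values was not tested. The comparison shares its Model libraries with Model vs Ctrl, so both sets of differences lean on the same 3 mice.

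In mice without AOM/DSS, Ctrl_Swim vs Ctrl called 0 of 9 members by edgeR and 0 by DESeq2 (0.168% and 0.568% of genes). All 9 log2 fold changes were above 0, as were 50% of all genes, from 0.32 for Cd79a to 1.02 for Bank1, with adjusted p-values from 0.206 to 0.606, and Bank1 alone had an unadjusted p under 0.05, against 17.6% of genes. These values rested on 1 mouse. Ctrl_Swim 4 held 1.96 times (Cd79a) to 3.89 times (Fcer2a) the mean of the other 2 Ctrl_Swim libraries, and the coefficient of variation of the members in this group ran from 42.5% to 86.4%, against 2.70% to 21.4% in Model. Without Ctrl_Swim 4 the log2 fold changes were -0.07 to 0.37, with 5 members above 0 and 4 below. That library also had the second highest sum of T cell genes (94.6 CPM, against 40.3 and 45.7 in the other Ctrl_Swim libraries) and more squamous transcript (349 CPM, against 47.8 and 2.71). The part of these in the members' levels was not tested.

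Between swimming mice, Model_Swim vs Ctrl_Swim called 0 of 9 members by edgeR, 0 by DESeq2 and 0 at an unadjusted p under 0.05, against 1%, 1.85% and 22.4% of genes. All 9 lay below 0, as did 51.8% of genes, with log2 fold changes between -0.06 for Cr2 and -0.999 for Fcer2a, with 95% intervals that ran from -2.19 to 1.04 over the members. Without Ctrl_Swim 4 they lay between -0.07 and 0.53, and 7 of 9 changed sign to positive. Whether the AOM/DSS difference itself differed between sedentary and swimming mice is the question of the last comparison.

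The interaction of swimming with AOM/DSS tests that difference. By edgeR 0 of 9 members and 0% of all genes were called, while 9 of 9 had an unadjusted p under 0.05 and a negative value, as had 9.45% of genes. Of all genes 50% were below 0. The members ran from -1.43 for Cd79a (SE 0.37, adjusted p = 0.117) to -2.41 for Bank1 (SE 0.52, 95% interval -3.56 to -1.26, adjusted p = 0.115), and the highest adjusted p was 0.186, for Cr2. DESeq2 called 7 of the 9, all but Cr2 and Cd22, among 213 genes in all (1.51%). Leaving out Ctrl_Swim 2 brought Blk and Bank1 past the threshold in edgeR (adjusted p = 0.0470 and 0.0390), and leaving out Model 3 brought Bank1. Without Ctrl_Swim 4, whose high values enter the interaction with a negative sign, the estimates were -0.99 to -1.78 and the adjusted p-values 0.180 to 0.401. Acinar genes were also below 0 in 10 of 10 tested, with a median of -11.42 and 0 called by edgeR, and DESeq2 called 11 of 12. With Model 1 and Model 3 left out the members' estimates were -1.46 to -2.25, and with the acinar covariate -1.56 to -2.42.

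The members moved together across libraries. For all 9, the 3 Model libraries and Ctrl_Swim 4 were the 4 highest of the 12, an arrangement found in 303 genes or 1.96% of those tested. Model 3 was the highest for 6 members and Ctrl_Swim 4 for Cd79b, Fcer2a and Blk. Pairwise Pearson correlations of log2 CPM lay between 0.883 and 0.986 over the 36 pairs. These describe 12 libraries that share their depth and tissue and fall into high and low sets. The 10 genes whose log2 CPM followed the members' mean most closely included H2-Ob (r = 0.983), H2-DMb2, Hvcn1, Cd37, H2-Oa, Siglecg, Sipa1, Treml2 and Tnfrsf13c (r = 0.944). H2-Oa and H2-Ob form the class II peptide-loading modulator of B cells, H2-DMb2 is a chain of the class II peptide exchanger, and Tnfrsf13c is the receptor for the survival factor BAFF. In all, 45 genes, or 0.291% of those tested, had r over 0.9, the members included.

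The proportions among the members differed between the high libraries. Cr2 took 11.34% to 11.99% of the summed member CPM in Model and 7.19% in Ctrl_Swim 4, whereas Fcer2a took 4.65% to 5.47% in Model and 8.71% in Ctrl_Swim 4, the largest share in any library. The ratio of Cr2 to Fcer2a CPM was 2.19, 2.22 and 2.44 in Model and 0.825 in Ctrl_Swim 4, the only library in which Fcer2a exceeded Cr2. It was 1.16 to 1.86 in Ctrl, 1.36 and 1.70 in the other Ctrl_Swim libraries and 1.56 to 2.30 in Model_Swim. Model and Ctrl did not overlap in this ratio, but Model and Model_Swim did. The pair was chosen after its values were seen, and 1 mouse sets the contrast, so no test was made. Relative to Cd79a, the counts of Pax5, Cd22, Fcer2a, Blk, Bank1 and Cd79b were likewise highest in Ctrl_Swim 4, and those of 7 members were lowest in Ctrl 2.

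**Figure D3:**
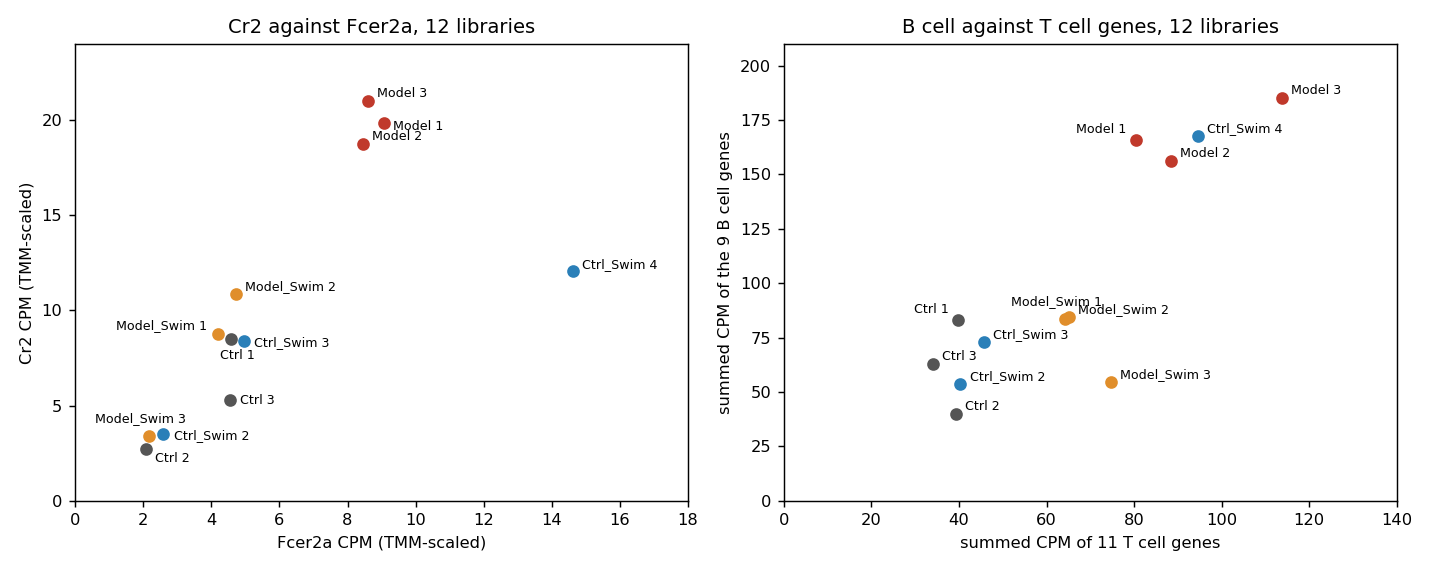
Left, Cr2 against Fcer2a in TMM-scaled CPM, 1 point per library; Model libraries lie at 18.7 to 21.0 CPM of Cr2 and 8.44 to 9.06 of Fcer2a, and Ctrl_Swim 4 lies apart at 12.1 and 14.6. Right, the summed CPM of the 9 B cell genes against that of 11 T cell genes; the Model libraries and Ctrl_Swim 4 are high for both, and Model_Swim libraries lie between in T cell genes but not in B cell genes.

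Other B cell genes were described by lists, with counts beside the 6.21% of all genes called higher in Model vs Ctrl. Of 13 analysed genes of the B cell surface and of antigen presentation, 10 rose in Model and 0 fell, with a median log2 fold change of 1.37. Tnfrsf13c rose by 1.95 (SE 0.34, adjusted p = 0.00245), from 1.89 ± 0.55 to 7.30 ± 0.67 CPM (SD, n = 3). Fcrl1, an Fc receptor-like protein of B cells, and Cd72, an inhibitory co-receptor, rose by 1.54 and 1.37 (adjusted p = 0.00904 and 0.00492). The co-stimulatory receptor Cd40, the tetraspanin Cd37, the Toll-like receptor homologue Cd180 and H2-Ob also rose, by 1.19 to 1.45. With Model 1 and Model 3 left out, 2 of the 13 were called, and without Ctrl 2, 4.

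Signalling molecules below the receptor moved less. Of 14, 2 rose and 0 fell in Model, with a median of 0.68, although 11 had an adjusted p under 0.05 and a positive value, as had 16.5% of all genes. The pair called was Pik3cd, the lymphocyte PI3-kinase subunit (1.02, SE 0.23, adjusted p = 0.00839), and its adaptor Pik3ap1 (1.07, SE 0.28, adjusted p = 0.0138). Several of these genes also act in myeloid and T cells. Of 10 transcription factors of the B lineage, 3 rose, with a median of 0.65. They were Pou2f2, which encodes Oct2 (1.48, SE 0.30, adjusted p = 0.00447), Bach2, which holds B cells from becoming plasma cells (1.44, SE 0.33, adjusted p = 0.00876), and Ikzf3, the B cell factor Aiolos (1.12, SE 0.33, adjusted p = 0.0241). The member Pax5, at 1.70, lay above each of them.

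Most germinal centre genes lay above 0 in Model vs Ctrl (5 above and 1 below), with 1 called higher and 1 lower. Their median was 0.86, against 0.0055 over all genes tested. Of 6 tested, Mybl1 rose by 1.22 (SE 0.32, adjusted p = 0.0154) and Rgs13 fell by 1.22 (SE 0.32, adjusted p = 0.0149), from 7.30 ± 0.91 CPM in Ctrl to 3.14 ± 1.59 in Model (SD, n = 3). The call of Mybl1 was lost both without Ctrl 2 and with Model 1 and Model 3 left out, and that of Rgs13 was not. Rgs13 was also below Ctrl in Ctrl_Swim, which had no AOM/DSS, at 4.03 ± 0.86 CPM, and in Model_Swim, at 3.93 ± 0.73. This gene, a regulator of G protein signalling, is also expressed by tuft cells and mast cells.

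Of 12 genes that organise follicles, 6 rose and 0 fell in Model, with a median of 1.59. Lymphotoxin beta (Ltb), which induces follicular stroma, rose by 1.64 (SE 0.30, adjusted p = 0.00316). The chemokine Ccl20 and its receptor Ccr6, which bring B cells to the follicle dome, rose by 1.70 and 1.66 (SE 0.40 and 0.41, adjusted p = 0.00904 and 0.0109), and Cxcr5, the receptor for Cxcl13, rose by 1.53 (SE 0.37, adjusted p = 0.0110). Madcam1, the vascular ligand of gut-homing lymphocytes, rose by 1.06, and Ccr7, a homing receptor of naive lymphocytes, by 2.05 (adjusted p = 0.0101 and 0.0466). Cxcl13 itself gave 0.86 (SE 0.23, adjusted p = 0.0171), under the fold of 2.

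The median of the plasma cell list in Model vs Ctrl was 0.19, with 6 genes above 0 and 2 below. Of 8 analysed, edgeR called 0, where 6.21% of all genes were called higher. At that share a list of 8 may hold no call, so the count alone does not set the list apart. DESeq2 called 0 of the 8, and 1369 genes in all. By edgeR 2 had an unadjusted p under 0.05, against 45.2% of all genes. Jchain, the joining chain of secreted IgA and the most abundant of the list's genes, measured 1064 ± 257 CPM in Ctrl, 807 ± 69.6 in Ctrl_Swim, 1151 ± 270 in Model and 873 ± 165 in Model_Swim (SD, n = 3), with a log2 fold change of 0.11 (SE 0.21, adjusted p = 0.702) between Model and Ctrl. Prdm1, the factor that ends the B cell programme, had the smallest adjusted p, at 0.73 (SE 0.13, adjusted p = 0.00273), below the fold of 2.

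Genes of other immune cells were measured beside the members. Of 11 T cell genes 7 rose in Model, among them Icos (1.90, SE 0.30, adjusted p = 0.00144), Cd4 (1.73, SE 0.26, adjusted p = 0.00124) and Cd5 (1.80, SE 0.47, adjusted p = 0.0145), which a subset of B cells also carries. The receptor chains Cd3d, Cd3e and Cd3g and the kinase Zap70 rose by 1.11 to 1.39. The sum of all 11 T cell genes was 34.0 to 39.7 CPM in Ctrl, 80.3 to 114 in Model and 64.2 to 74.8 in Model_Swim. Of 8 myeloid genes 4 rose by edgeR, among them the phagocyte genes Lyz2 and Cd68, by 1.35 and 1.21 (adjusted p = 0.000285 and 0.000485). The calprotectin genes S100a8 and S100a9 rose by 5.93 and 5.65 (SE 1.54 and 1.37, adjusted p = 0.0143 and 0.0107). S100a8 averaged 0.128 CPM in Ctrl, below the counting limit given above, and ranged from 1.38 to 15.1 CPM in Model. S100a9 had 4 to 12 counts in Ctrl libraries and ranged from 2.87 to 41.1 CPM in Model. Of 5 genes of follicle-associated epithelium and M cells 3 rose, Tnfaip2 by 1.33 (SE 0.23, adjusted p = 0.00235), Marcksl1 by 1.43 (SE 0.49, adjusted p = 0.0460) and Gp2 by 7.47 (SE 1.39, adjusted p = 0.00315). Gp2, the M cell receptor, is also a zymogen granule protein of the pancreas and ranged from 2.62 to 572 CPM within Model. Marcksl1 ranged from 28.8 to 150 CPM within Model, against 22.8 to 29.2 in Ctrl. Its call was lost without Ctrl 2 and also without Ctrl_Swim 4. The rest of this list went both ways by edgeR, under the fold of 2. Anxa5 gave 0.42 and Ccl9 -0.62 (SE 0.07 and 0.14, adjusted p = 0.00158 and 0.00721). Of 8 genes of the colonocyte list, Muc2 included, 0 were called by edgeR and 0 by DESeq2. Of the 15484 genes tested, edgeR called 189 lower and 961 higher, so 0 of 8 is near the share of all genes. Car1 had the largest change of the list, at -1.88 (SE 0.81, adjusted p = 0.0938). It measured 6385 to 6821 CPM in Ctrl and 277 to 4731 in Model. In that list 4 had an unadjusted p under 0.05, and the median was -0.35. The brush border gene Vil1 had the smallest adjusted p among them, at -0.49 (SE 0.09, adjusted p = 0.00359). Of 10 acinar genes tested 10 rose, and of 9 squamous genes 7. With Model 1 and Model 3 left out these counts were 0 and 9, with 1 acinar gene lower, and without Ctrl 2 squamous calls numbered 0.

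Counts of calls fell in several of these lists without some libraries. With Model 1 and Model 3 left out, calls numbered 0 of signalling, 1 of transcription factors, 3 of follicle organisation, 3 of T cell genes and 1 of follicle-associated epithelium. Without Ctrl 2 they numbered 1, 2, 5, 5 and 2. Myeloid calls numbered 4 and 5 in these fits, against 4 with all libraries.

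In Model_Swim vs Model, edgeR called 0 genes in each of these lists. The median log2 fold change was -1.01 for the B cell surface list, where 10 of 13 genes had an unadjusted p under 0.05 (13.6% of all genes had), -0.67 for follicle organisation (5 of 12), -0.52 for transcription factors (5 of 10) and -0.34 for receptor signalling (6 of 14). It was -0.49 for T cell genes (2 of 11), -0.45 for germinal centre genes (0 of 6) and -0.42 for plasma cell genes (4 of 8). For myeloid genes it was -0.08 (0 of 8) and for follicle-associated epithelium and M cells -0.06 (2 of 5). The members had -1.24 and all genes -0.0085. DESeq2 called Fcrla and Fcrl1 of the surface list, Derl3 of the plasma cell list, Gp2 and 12 of 12 acinar genes, all lower in Model_Swim, and 0 genes of the signalling, transcription factor, germinal centre, follicle, T cell, myeloid and colonocyte lists. By edgeR the smallest adjusted p of the surface list belonged to Fcrl1 (-1.36, SE 0.36, adjusted p = 0.174). For signalling it was that of the kinase Syk (-0.34, SE 0.08, adjusted p = 0.121). For transcription factors it was that of the Ets factor Spib (-0.90, SE 0.20, adjusted p = 0.128). For germinal centre genes it was that of Mybl1 (-0.63, SE 0.31, adjusted p = 0.418), and for the follicle list that of Ccr6 (-1.24, SE 0.40, adjusted p = 0.243). In the plasma cell list it belonged to Derl3, an endoplasmic reticulum protein of secretory cells (-1.22, SE 0.29, adjusted p = 0.146). The smallest of all were 0.0603, in the list of follicle-associated epithelium and M cells and in the acinar list. The smallest was 0.253 for colonocyte, 0.298 for T cell, 0.382 for myeloid and 0.579 for squamous genes.

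In Ctrl_Swim vs Ctrl, edgeR and DESeq2 called 0 genes of the immune lists. The plasma cell list lay below 0 in 8 of 8 genes, against 49.9% of all genes, with a median of -0.55, and 6 had an unadjusted p under 0.05, while the B cell surface list lay above 0 in 12 of 13. Without Ctrl_Swim 4 the plasma cell list lay below 0 in 8 of 8 genes, with a median of -0.56 and 4 at an unadjusted p under 0.05, and the surface list above 0 in 9 of 13. Squamous genes lay above 0 in 9 of 9, with a median of 4.99, or 2.55 without Ctrl_Swim 4, and DESeq2 called 3 of them. The smallest adjusted p of these lists was that of Xbp1, the secretory factor of plasma cells (-0.30, SE 0.07, adjusted p = 0.0647), followed by that of Adgre1, the macrophage protein F4/80 (-0.48, adjusted p = 0.0939). In the B cell surface list it was that of Fcmr, the IgM Fc receptor (1.30, SE 0.46, adjusted p = 0.200), and in the follicle list that of Ccl21a, a chemokine of the T cell zone (0.67, SE 0.21, adjusted p = 0.160).

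In Model_Swim vs Ctrl_Swim, edgeR called Icos of the T cell list (1.16, SE 0.29, adjusted p = 0.0470), Cd68 of the myeloid list (1.22, SE 0.14, adjusted p = 0.00307) and Tnfaip2 (1.31, SE 0.23, adjusted p = 0.0143), all higher with AOM/DSS, and 0 of the B cell, germinal centre and follicle organisation lists. Without Ctrl_Swim 4 it also called Cd180 and Ccr7 higher, and without Ctrl 2 the call of Icos was lost. In the interaction edgeR called 0 genes of the lists, and DESeq2 called 8 of 13 of the B cell surface list, 4 of 12 of follicle organisation, Btk, Spib, Cd5, Gp2 and 11 of 12 acinar genes, all below 0. By edgeR Cd72 gave -1.63 (SE 0.39, adjusted p = 0.115) and Ltb -1.69 (SE 0.42, adjusted p = 0.115).

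**Figure D4:**
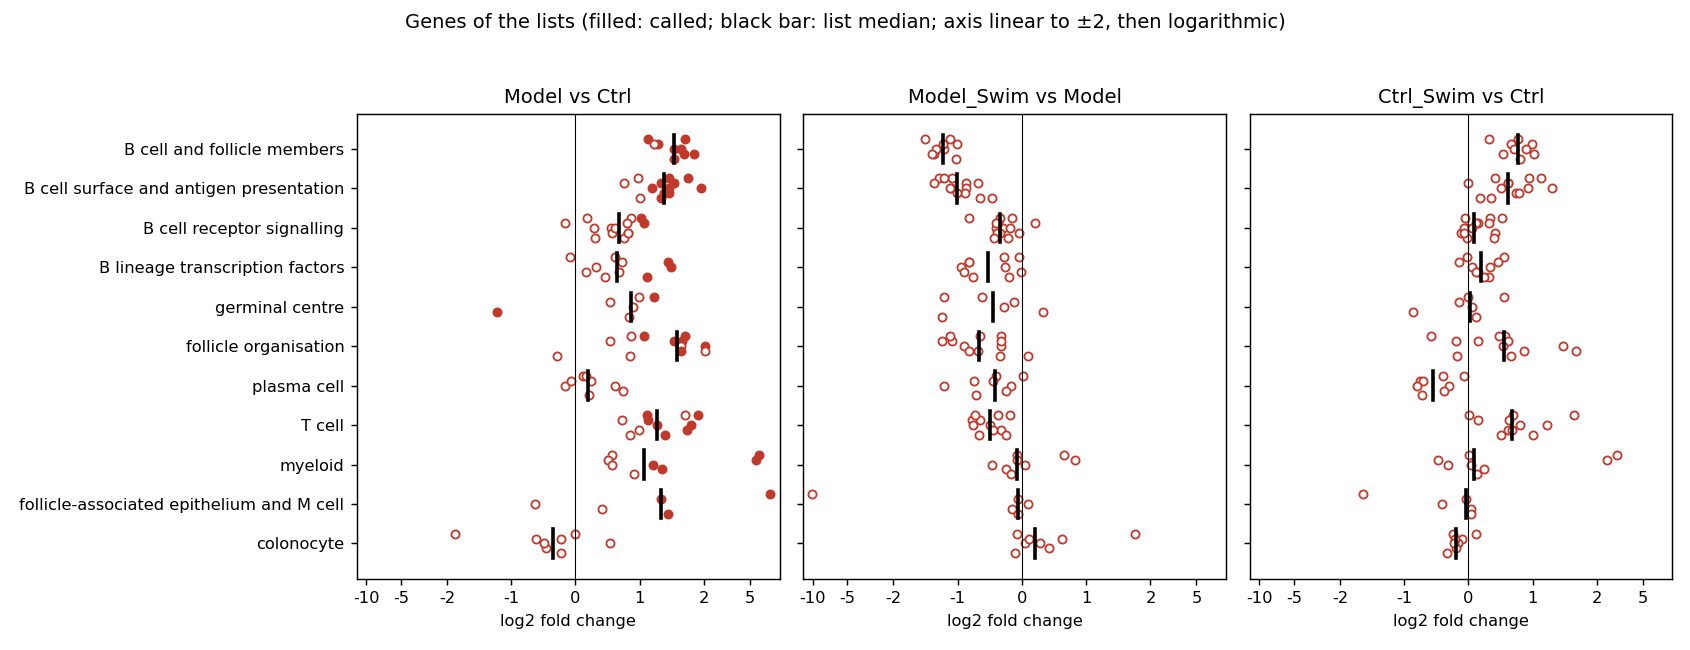
Log2 fold changes of single genes by list in Model vs Ctrl, Model_Swim vs Model and Ctrl_Swim vs Ctrl, with the list median as a black bar; filled points were called by edgeR, and the axis is linear to ±2 and logarithmic beyond. The members, the B cell surface list and the follicle list have medians of 1.54, 1.37 and 1.59 in Model vs Ctrl, and no point is filled in the other panels.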

How the data were processed

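RNA of mouse colorectal tissue was sequenced in 12 libraries, 1 per mouse. Extraction was by TRIzol in the paper's methods and by a mirVana kit in the labels. Libraries were made with a TruSeq Stranded mRNA kit. Reads were trimmed (Trimmomatic) and placed on GRCm38.p6 (HISAT2) by the authors, who deposited the raw read count per gene from HTSeq-count. They also deposited FPKM values from Cufflinks, which correct for transcript length and were used here only to order genes by level. Tool versions and the annotation release are not given in the sources used here, nor is the strand setting of the counting. All 12 columns of each table were used, and no sample was left out.

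Analysis of these counts used edgeR 4.0.16 under R 4.3.3, with TMM scaling and filterByExpr (minimum count 10). All 12 libraries entered 1 quasi-likelihood model with a term per group. From it came 4 pairwise contrasts, of AOM/DSS within each activity state and of swimming within each treatment, and their interaction, with Benjamini-Hochberg adjustment over the 15484 genes tested. The cutoffs (adjusted p under 0.05, fold over 2 or under 0.5) are those of the study, whose tool DESeq2 (1.42.0) was an alternative. Log2 CPM used a prior count of 2. With 17256953 to 19451055 counts per library, intervals and limits from counts cover counting error only. Nothing in the labels ties libraries to separate litters or cages, so p-values measure the spread between these mice. The code was tested on simulated data.

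The members and lists were chosen with earlier results of these data known. Every member is named. Of the other lists, up to 8 called genes or, with none called, genes with the smallest adjusted p are named, and the 10 genes most alike the members' mean standardised log2 CPM, gene models and antigen receptor segments aside. Of the B cell surface list 13 of 15 genes and of the plasma cell list 8 of 9 were analysed here, and some genes of the lists, though counted in them, are not reported here by name. Positions and promoter windows are from RefSeq for GRCm38.p6. Alternatives were DESeq2, its size factors in edgeR, no filter, a replicate block, fits restricted to the groups compared, an acinar covariate, calls on adjusted p alone, fits without Model 1 and Model 3, and 12 fits that each left out 1 library. A fit without Ctrl 2 and Ctrl_Swim 4 was added after seeing the data.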

Additional observations from a re-analysis of the deposited data

How the results depend on the processing

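The direction of the members was the same under all 189 combinations of member and alternative in Model vs Ctrl (higher) and in Model_Swim vs Model (lower), and under all 180 in the interaction (lower). Calls on the adjusted p alone reused the main log2 fold changes, so their direction was fixed in advance. The other alternatives refitted all or part of the same 12 libraries. Member calls were less steady. In Model vs Ctrl 2 members were called with the acinar covariate, 2 with Model 1 and Model 3 left out and 1 to 9 when single libraries were left out. In Model_Swim vs Model DESeq2 called 2, the fit without Ctrl 2 and Ctrl_Swim 4 called 1 and the fits without single libraries 0 to 2. In the interaction DESeq2 called 7 and the fits without single libraries 0 to 2. The cause was not tested. The lowest member count in Model vs Ctrl was that without Ctrl 2, and the highest counts of genes below were without Model 1 (Ctrl_Swim vs Ctrl) or Model 3 (the others). The lowest were without Ctrl 2 (Model vs Ctrl), Model_Swim 2 (Model_Swim vs Model), each of Ctrl 1, Ctrl 3 and Ctrl_Swim 3 (Ctrl_Swim vs Ctrl) and Model_Swim 3 (Model_Swim vs Ctrl_Swim). Genes called in Model vs Ctrl numbered 1150, and 5066 by the adjusted p alone, and 718 to 1679 without single libraries. In Model_Swim vs Model they numbered 11, and 115 by DESeq2, 34 without a filter, 2 with only the groups compared, 1 with the acinar covariate, 214 without Model 1 and Model 3 and 6 to 327 without single libraries. In Ctrl_Swim vs Ctrl they numbered 26, and 76 by DESeq2, 52 with only the groups compared, 150 by the adjusted p alone, 13 with the acinar covariate, 58 without Model 1 and Model 3, 4 without Ctrl 2 and Ctrl_Swim 4 and 0 to 38 without single libraries. In Model_Swim vs Ctrl_Swim they numbered 155, and 274 by DESeq2, 272 with only the groups compared, 802 by the adjusted p alone, 324 without Model 1 and Model 3, 69 without Ctrl 2 and Ctrl_Swim 4 and 46 to 274 without single libraries. In the interaction they numbered 0, and 213 by DESeq2, 2 with the acinar covariate, 249 without Model 1 and Model 3 and 0 to 248 without single libraries. A fit of only the groups compared does not exist for the interaction.

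In Ctrl_Swim vs Ctrl, leaving out Ctrl 2 and Ctrl_Swim 4 together, chosen after seeing the data, turned the log2 fold change negative for Cd79a (-0.22), Cd79b (-0.23), Ms4a1 (-0.10), Cr2 (-0.20), Cd22 (-0.28), Pax5 (-0.37), Fcer2a (-0.27) and Blk (-0.035). Without single libraries the values ran from -0.074 to 0.55 for Cd79a, -0.028 to 0.99 for Cd79b, -0.023 to 1.12 for Cd22 and -0.0025 to 1.31 for Pax5, the lowest being without Ctrl_Swim 4. In Model_Swim vs Ctrl_Swim, leaving out both turned it positive for Cd79a (0.093), Cd79b (0.32), Ms4a1 (0.12), Cr2 (0.36), Cd22 (0.53), Pax5 (0.20) and Blk (0.080). Without single libraries the values ran from -0.53 to 0.093 for Cd79a, -0.70 to 0.32 for Cd79b, -0.65 to 0.12 for Ms4a1, -0.43 to 0.36 for Cr2, -0.61 to 0.53 for Cd22, -0.93 to 0.20 for Pax5 and -0.93 to 0.080 for Blk.

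Groups share replicate numbers, but nothing in the labels says that these pair mice. With 3 libraries per group, the correlations below cannot settle this. Over 15 same-numbered pairs the correlation of deviations from the group means was -0.261 to 0.564, with 4 over 0.1, and 3 of 12 libraries were most alike a library of their own number. With the number as a replicate block, genes called numbered 1109, 22, 1, 18 and 0 in the 5 comparisons in the order above. Members called numbered 9 in Model vs Ctrl and 0 in the others. In Model_Swim vs Ctrl_Swim the block gave 0.0091 for Cd79a, 0.29 for Cd79b, 0.019 for Ms4a1, 0.25 for Cr2, 0.44 for Cd22 and 0.013 for Pax5, all positive. Depth did not limit the members, whose lowest count was 31.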
